A study of Mus musculus with 6 samples.

Results

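The mitosis and spindle genes described here are 43 named mouse genes, taken by gene symbol from a matrix of 22551 distinct symbols. Each of the 43 symbols had 1 row in the matrix. The list covers the proteins that drive a cell into mitosis, attach and separate its chromosomes and divide the cytoplasm.

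RNA was sequenced from 6 mouse pro-B cultures. Pro-B cells are precursors of B cells at the stage of heavy chain gene rearrangement. They were grown from bone marrow for 1 week as colonies in methylcellulose for B cells, and taken at passage 1. By their titles, 3 cultures came from Ts1Rhr mice and 3 from wild-type mice, although the genotype field gives Ts1Rhr for all 6. Ts1Rhr mice carry an engineered extra copy of a segment of chromosome 16. None of the 43 genes lies on chromosome 16 in the RefSeq annotation of GRCm38.p6, in which they are spread over 16 chromosomes. The sex and age of the mice, and whether each culture came from a separate mouse, are not given in the labels. The 6 columns of values are coded p1A1, p1A2, p1A3, p1C1, p1C2 and p1C3. Neither the header nor the labels say which letter stands for which genotype, so the values are given by column, no column is called Ts1Rhr or wild-type, and no genotype comparison was made. For the same reason no group mean, standard deviation or p-value is given for any gene, and every statement below describes these 6 libraries.

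Mitosis is switched on by the kinase CDK1 bound to cyclin A or cyclin B, and switched off when the anaphase-promoting complex, a ubiquitin ligase, marks the cyclins and securin for destruction. In between, kinetochores assembled on the centromeres bind spindle microtubules, and the spindle checkpoint holds back the ligase until every chromosome is attached. Many genes of this kind are transcribed in a burst before and during mitosis. That burst is known to run through the MuvB complex with B-Myb and FOXM1, which acts at a promoter element called the cell cycle genes homology region, or CHR, and through NF-Y, which binds CCAAT boxes. Pro-B cells divide rapidly in response to interleukin 7, so a culture of them is expected to hold many cells in cycle.

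The promoters of the genes were searched for both elements, CCAAT and the CHR letters TTTGAA, each on either strand. RefSeq promoter sequences of GRCm38.p6, running from 250 bases before to 50 bases after each annotated start, were matched by symbol for 34 of the 43 genes, with 37 promoters between them. Aurkb, Ccna2, Cdc25c, Foxm1, Incenp, Kif20a, Smc4, Spc24 and Tpx2 had no matched promoter. TTTGAA was found in 28 of the 37 promoters, or 75.7% (95% Wilson interval 59.9% to 86.6%), against 17.9% of all 32851 promoters of that length. CCAAT was found in 30 of the 37, or 81.1% (65.8% to 90.5%), against 37.4% of all promoters. Both together were found in 25 of the 37, or 67.6%, against 6.95% of all promoters. The 3 genes with a second, overlapping promoter (Ect2, Prc1 and Bub3) enter the counts with both, and the intervals cover counting error only.

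Single promoters are shown to let the arrangement of the elements be seen. The first 4 hold both elements within the 120 bases before the start, the next pair hold spaced CCAAT boxes there, and the last holds neither. CCAAT or TTTGAA on either strand is in capitals, and each sequence is read 5′ to 3′ towards the gene.
Cdk1, chr10:69352913-69353032, minus strand: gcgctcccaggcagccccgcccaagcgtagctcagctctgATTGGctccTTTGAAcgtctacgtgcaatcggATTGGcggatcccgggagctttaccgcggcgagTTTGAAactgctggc
Cdc20, chr4:118437344-118437463, minus strand: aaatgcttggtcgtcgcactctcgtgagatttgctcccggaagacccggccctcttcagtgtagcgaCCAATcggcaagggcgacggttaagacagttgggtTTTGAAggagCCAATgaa
Top2a, chr11:99024190-99024309, minus strand: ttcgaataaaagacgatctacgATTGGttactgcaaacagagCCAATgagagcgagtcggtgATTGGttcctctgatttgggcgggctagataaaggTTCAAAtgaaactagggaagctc
Kif11, chr19:37376262-37376381, plus strand: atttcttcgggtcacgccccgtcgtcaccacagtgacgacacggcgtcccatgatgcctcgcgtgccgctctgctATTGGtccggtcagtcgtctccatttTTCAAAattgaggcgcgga
Ccnb2, chr9:70421555-70421674, minus strand: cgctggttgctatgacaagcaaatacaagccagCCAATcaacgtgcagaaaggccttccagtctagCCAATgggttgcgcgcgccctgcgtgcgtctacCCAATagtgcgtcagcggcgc
Spc25, chr2:69206214-69206333, minus strand: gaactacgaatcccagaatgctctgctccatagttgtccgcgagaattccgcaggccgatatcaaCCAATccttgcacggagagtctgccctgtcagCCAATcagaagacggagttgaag
Birc5, chr11:117849117-117849236, plus strand: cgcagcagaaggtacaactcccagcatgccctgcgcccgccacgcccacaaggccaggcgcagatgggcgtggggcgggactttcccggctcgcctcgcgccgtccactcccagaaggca

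In Cdk1 the CCAAT boxes shown begin 80 and 48 bases before the start, with another at 208 outside the stretch, and the TTTGAA elements begin 71 and 15 bases before it. Ccnb2, which encodes cyclin B2, has CCAAT at 87, 54 and 21 bases before the start and TTTGAA at 167 bases before it and at base 5 counted from it, both outside the stretch shown. Spc25, a subunit of the NDC80 complex, has CCAAT at 55 and 23 bases before the start and TTTGAA at base 25 counted from the start. A pair of CCAAT boxes in the same orientation with first bases 31 to 33 apart was found in 7 of the 37 promoters, or 18.9%, against 0.794% of all promoters. This spacing was looked for after these promoters had been seen. Cdk1, Ccnb2 and Spc25 are among the 7, so the count is partly fixed by that choice. TTTGAA read in the direction of the gene was found in 20 of the 37 promoters, or 54.1%, against 10.2% of all promoters. On the opposite strand, where it reads TTCAAA in the gene's direction, it was found in 10 (27.0%), against 8.95%. Neither element was found in 4 promoters (10.8%), those of Birc5, Mad2l1, Nuf2 and Pttg1, against 51.7% of all promoters. The Pttg1 window lay wholly inside the annotated span of the gene, so the region before the outermost start of Pttg1 was not searched. Windows of Kif2c, Aurka, Cdc25b and Ect2 also lay wholly inside their genes. A match of letters describes the window and was not tested as a binding site.

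**Figure D1:**
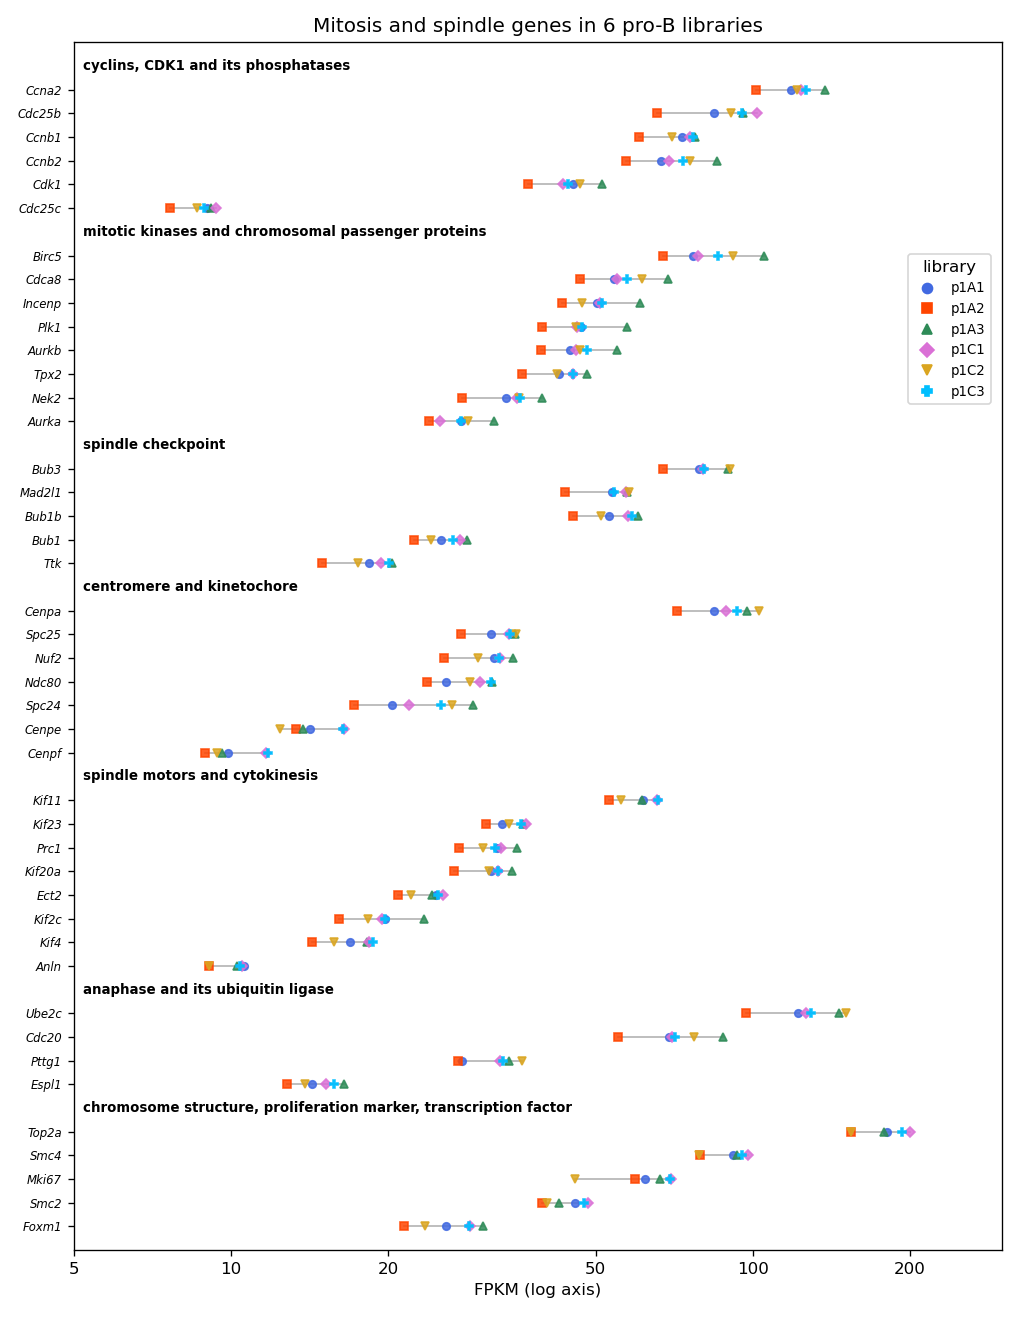
FPKM (log axis) of each of the 43 genes in each of the 6 libraries, grouped by role and sorted by median within a role. Symbols mark the libraries and grey lines join the lowest and highest value. The p1A2 squares are the lowest point for 39 of the 43 genes.

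All 43 genes were expressed in all 6 libraries. Values are FPKM, fragment counts corrected for transcript length and for the number of mapped fragments, which allow levels to be set side by side between genes. The lowest value of any of the genes in any library was 7.65 FPKM, for Cdc25c, and 40 of the 43 were at or above 10 FPKM in every library. The median over the genes of their median level was 43.8 FPKM, against 11.5 FPKM over the 10673 genes with a median of at least 1 FPKM. By median level, 13 of the 43 genes, or 30.2%, stood at or above the 90th percentile of those 10673 genes, and the lowest, Cdc25c, stood at percentile 41.9. Summed over the 43 genes, the level was 2089, 1778, 2369, 2213, 2135 and 2231 FPKM in p1A1, p1A2, p1A3, p1C1, p1C2 and p1C3. Library p1A2 was lowest in this sum and held the highest level of myeloid marker transcripts. As a share of the summed FPKM of the library, the 43 genes were at 0.475% in p1A2 and 0.517% in p1C2. In the other libraries the share was 0.564% to 0.603%. Wherever 6 values follow each other below, they are FPKM in the order p1A1, p1A2, p1A3, p1C1, p1C2 and p1C3.

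The cyclins, CDK1 and its activating phosphatases came first in level among the role groups, with a median of 72.8 FPKM over the 6 genes. Ccna2, cyclin A2, was at 118, 101, 138, 123, 122 and 126. Ccnb1, cyclin B1, the main partner of CDK1 at mitotic entry, was at 73.0, 60.6, 77.6, 75.9, 69.9 and 76.7. Ccnb2 was at 66.8, 57.1, 85.3, 69.0, 75.8 and 73.3. All 3 cyclin genes were lowest in p1A2 and highest in p1A3. The ratio of Ccnb1 to Ccnb2 lay between 0.910 in p1A3 and 1.10 in p1C1, so neither B-type cyclin exceeded the other in every library. Cdk1 itself was at 45.3, 37.1, 51.4, 43.2, 46.6 and 44.3. Its level was below that of each of the 3 cyclin genes in every library, and the ratio of Ccna2 to Cdk1 kept to a narrow range, 2.61 to 2.86.

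The phosphatases that remove the inhibitory phosphates from CDK1 were far apart. Cdc25b was at 84.2, 65.6, 95.7, 102, 90.6 and 95.1. Cdc25c was at 8.99, 7.65, 9.16, 9.36, 8.60 and 8.88. The ratio of Cdc25b to Cdc25c was 8.58 to 10.9, and Cdc25c was the lowest of the 43 genes by median while Cdc25b was the fourth highest. Both were lowest in p1A2 and highest in p1C1.

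The mitotic kinases and chromosomal passenger proteins had a median of 46.3 FPKM over 8 genes, and all 8 were lowest in p1A2 and highest in p1A3. Plk1, Polo-like kinase, which acts from mitotic entry to cytokinesis, was at 46.8, 39.4, 57.3, 45.9, 45.9 and 47.0. Aurka, the Aurora kinase of the spindle poles, was at 27.6, 23.9, 31.9, 25.2, 28.4 and 27.5. Aurkb, the Aurora kinase of the chromosomal passenger complex, was at 44.6, 39.2, 55.0, 45.8, 46.6 and 48.2. For all 3 kinases the p1A3 value lay clear above the other 5 libraries. Aurka stood at 0.550 to 0.620 of Aurkb in the 6 libraries. Birc5, survivin, which anchors the passenger complex at the centromere, was at 76.8, 67.3, 105, 78.4, 91.4 and 85.7, the highest of the group. Its partners in that complex, Incenp and Cdca8 (borealin), had medians of 50.5 and 56.1 FPKM. Tpx2, which activates Aurora A on the spindle, had a median of 43.8 FPKM and Nek2, a centrosome kinase, 35.5 FPKM.

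The spindle checkpoint genes had a median of 55.3 FPKM over 5 genes. Mad2l1, which encodes MAD2, the protein that sequesters CDC20, was at 53.6, 43.7, 57.4, 57.1, 58.0 and 54.1. Its p1A2 value stood apart below 5 values that lay close together. Bub1b, which encodes BUBR1, another CDC20 inhibitor, was at 53.0, 45.2, 60.3, 57.7, 51.3 and 58.7. The kinase gene Bub1 had a median of 25.9 FPKM, and Bub1b stood at 2.01 to 2.20 times Bub1 in every library. Bub3, which recruits BUB1 and BUBR1 to kinetochores, had the highest median of the group, 80.4 FPKM, and Ttk, the kinase MPS1 that starts checkpoint signalling, the lowest, 18.9 FPKM.

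Among the centromere and kinetochore genes, with a median of 29.3 FPKM over 7 genes, Cenpa, the centromeric histone H3 variant, was highest with a median of 90.8 FPKM. The 4 subunits of the NDC80 complex, which couples kinetochores to microtubules, had medians within a narrow span, 29.3 FPKM for Ndc80, 32.3 FPKM for Nuf2, 23.6 FPKM for Spc24 and 34.1 FPKM for Spc25. Spc24 was at 20.3, 17.2, 29.1, 21.9, 26.6 and 25.3 and had the widest spread of all 43 genes, with a highest-to-lowest ratio of 1.69. The ratio of Spc25 to Spc24 was 1.20 in p1A3 and 1.60 in p1A2, while that of Nuf2 to Ndc80 was 1.04 to 1.23.

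The large kinetochore proteins were at the low end. Cenpe, a kinetochore motor, was at 14.2, 13.3, 13.7, 16.5, 12.4 and 16.4. Cenpf was at 9.87, 8.93, 9.60, 11.7, 9.40 and 11.8. For both genes the p1C1 and p1C3 values lay close together and above the other 4, and Cenpe was lowest in p1C2.

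The spindle motors and cytokinesis proteins had a median of 28.3 FPKM over 8 genes. Kif11, the motor that pushes the spindle poles apart, had the highest median, 61.4 FPKM. Kif23, the motor of the centralspindlin complex, was at 33.1, 30.8, 36.3, 36.7, 34.0 and 36.0. Ect2, the exchange factor that activates RhoA for furrowing, was at 24.8, 20.9, 24.3, 25.4, 22.2 and 24.9. Anln, anillin, a scaffold of the contractile ring, was at 10.6, 9.09, 10.3, 10.5, 9.09 and 10.4. These last 3 were the steadiest of the 43 genes with Smc2 and Cdc25c, with highest-to-lowest ratios between 1.17 and 1.22. Prc1, which bundles midzone microtubules, had a median of 32.3 FPKM and its motor partner Kif4 17.6 FPKM, a ratio of 1.71 to 1.94. Kif20a had a median of 32.0 FPKM and the microtubule depolymerase Kif2c 19.6 FPKM.

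Of the genes that run anaphase, the ubiquitin-conjugating enzyme gene Ube2c, which works with the anaphase-promoting complex, was highest and second of all 43. Ube2c was at 122, 97.0, 146, 127, 151 and 129. Cdc20, the activator of the complex, was at 69.1, 55.0, 87.5, 70.0, 77.2 and 71.1. Espl1, separase, the protease that cuts cohesin, was at 14.3, 12.8, 16.5, 15.3, 13.9 and 15.8. Ube2c and Cdc20 had highest-to-lowest ratios of 1.55 and 1.59, among the 5 widest, and Ube2c reached its highest value in p1C2 while Cdc20 and Espl1 reached theirs in p1A3. Pttg1, securin, which holds separase inactive, had a median of 33.0 FPKM and stood at 1.94 to 2.60 times Espl1 in each library.

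In the group of chromosome structure, proliferation and transcription factor genes, Top2a had the highest level of all 43. Top2a, the topoisomerase that untangles sister chromatids, was at 180.4, 154, 178, 199.9, 154 and 193. The condensin gene Smc4 was at 91.6, 79.3, 93.2, 97.9, 78.9 and 95.4. Its partner Smc2 was at 45.6, 39.4, 42.5, 48.2, 40.3 and 47.5. SMC2 and SMC4 act as a dimer, and the level of Smc4 was 1.96 to 2.19 times that of Smc2 in each library. Mki67, the gene of the proliferation antigen Ki-67, was at 62.0, 59.4, 66.4, 69.7, 45.6 and 69.3. Its p1C2 value lay below the other 5, which spanned 59.4 to 69.7 FPKM. Foxm1, a transcription factor of the mitotic burst, was at 25.8, 21.5, 30.4, 28.8, 23.6 and 28.6, lowest in p1A2 and highest in p1A3. Mki67, Top2a, Smc4 and Smc2 were instead highest in p1C1.

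The genes varied little between libraries, and mostly together. The highest-to-lowest ratio had a median of 1.34 over the 43 genes and 1.33 over the 10673 genes with a median of at least 1 FPKM, or 1.30 over the 7969 genes with a median of at least 5 FPKM. It reached 1.5 for 6 of the 43 genes, or 14.0%, against 26.0% of the 10673 genes, and reached 2 for none of the 43, against 7.76%. To set genes of different level side by side, log2(FPKM + 1) of each gene was taken minus its own median over the 6 libraries, and the median of these deviations over the 43 genes was taken as the list level. The list level was -0.04 in p1A1, -0.27 in p1A2, 0.11 in p1A3, 0.03 in p1C1, -0.05 in p1C2 and 0.04 in p1C3, a range of 0.37. The p1A3 level depended on the scaling, at 0.04 with every library set to the same sum, where p1C1 was highest at 0.07, and at 0.05 with libraries set to the same 75th percentile. In p1A2 the level was the lowest under each scaling tried. Over all 10673 genes the same measure had a range of 0.08. Among the 7 role groups the range was narrowest, 0.27, for the spindle motors and cytokinesis genes and widest, 0.50, for the mitotic kinases and passenger proteins.

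**Figure D2:**
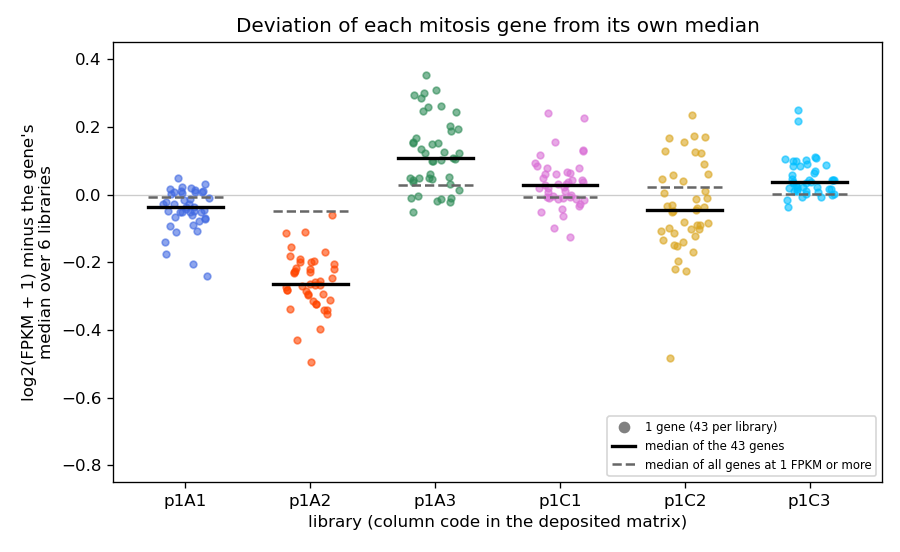
Deviation of log2(FPKM + 1) of each of the 43 genes from its own median, by library. Points are genes, black bars the median of the 43 genes and dashed bars the median of all 10673 genes with a median of at least 1 FPKM. In p1A2 every point lies below 0 and the black bar is at -0.27, against -0.05 for all genes.

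Library p1A2 stood lowest. None of the 43 genes was above its own median there, against 38.0% of the 10673 genes. Of the 43 genes, 39 (90.7%) had their lowest value there, against 39.5% of the 10673 genes. The 4 exceptions (9.30%), Smc4, Cenpe, Anln and Mki67, were lowest in p1C2, against 14.0% of the 10673 genes. Library p1A3 held the highest value of 24 of the 43 genes, p1C1 of 9, p1C2 of 6, p1C3 of 3 and p1A1 of 1. As shares these were 55.8%, 20.9%, 14.0%, 6.98% and 2.33%, against 31.1%, 17.8%, 17.1%, 6.37% and 4.95% of the 10673 genes. The counts in p1C1, p1C2, p1C3 and p1A1 thus lay near those of all genes. None of the 43 genes was highest in p1A2, against 22.7% of the 10673 genes. In p1A3, 36 of the 43 genes (83.7%) were above their own median, and in p1C3 38 (88.4%), against 58.9% and 51.9% of the 10673 genes. Libraries p1C1 and p1C3 were the most alike in these genes, with a median absolute log2 difference of 0.03 over the 43 genes, and p1A2 and p1A3 the least alike, at 0.40. Over all 10673 genes these were also the nearest and the farthest pair, at 0.07 and 0.25. Without p1A2 the range of the list level was 0.15 and the median highest-to-lowest ratio 1.20. The lowest values then lay in p1C2 for 24 genes, in p1A1 for 17 and in p1C1 for 2. The matching shares of all genes without p1A2 were not taken. In bulk RNA, fewer dividing cells and less of these transcripts per dividing cell cannot be told apart.

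Cell type markers also differed between the libraries, with p1A2 at one end. The 13 B-lineage markers, among them Cd79a, Vpreb1 and Dntt, were all at a median of at least 1 FPKM. Of these 13, 11 (84.6%) were lowest in p1A2, against 39.5% of the 10673 genes. The other 2 were highest there, Il7r, the interleukin 7 receptor gene, at 98.0 FPKM against 69.7 to 89.0 in the other 5 libraries, and Ptprc, the pan-leukocyte gene of CD45, at 58.8 FPKM against 44.2 to 54.7. The summed level of the 13 markers was 1898, 1614, 2372, 2346, 2391 and 2254 FPKM. The 10 myeloid markers with a row were all at a median of at least 1 FPKM as well. All 10 were highest in p1A2, against 22.7% of the 10673 genes. Their summed level was 3954, 5210, 2874, 2833, 4197 and 3888 FPKM, most of it from Lyz2, lysozyme, a macrophage and granulocyte gene with a median of 3443 FPKM, while Elane and Ctsg, of immature granulocytes, had medians of 4.48 and 3.05 FPKM. The libraries thus held myeloid transcripts beside those of the labelled pro-B cells, and their summed level differed up to 1.84-fold between libraries. Set against the summed B-lineage markers of the same library, the summed level of the 43 mitosis genes was 1.10, 1.10, 0.999, 0.943, 0.893 and 0.990, which puts p1A2 and p1A1 highest. The part of the cell mix in the level of the mitosis genes was not tested further. Of the other markers, 2 of 7 mast cell and basophil genes, 1 of 8 erythroid and megakaryocyte genes, 1 of 7 T and NK genes with a row and 1 of 5 stromal genes reached a median of 1 FPKM. Summed over each of these 4 lists, no library exceeded 15.0, 47.6, 14.9 and 7.30 FPKM. Tpsb2 and Cma1, of mast cells, and Car1, of erythroid cells, were listed at 0 in all 6 libraries.

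**Figure D3:**
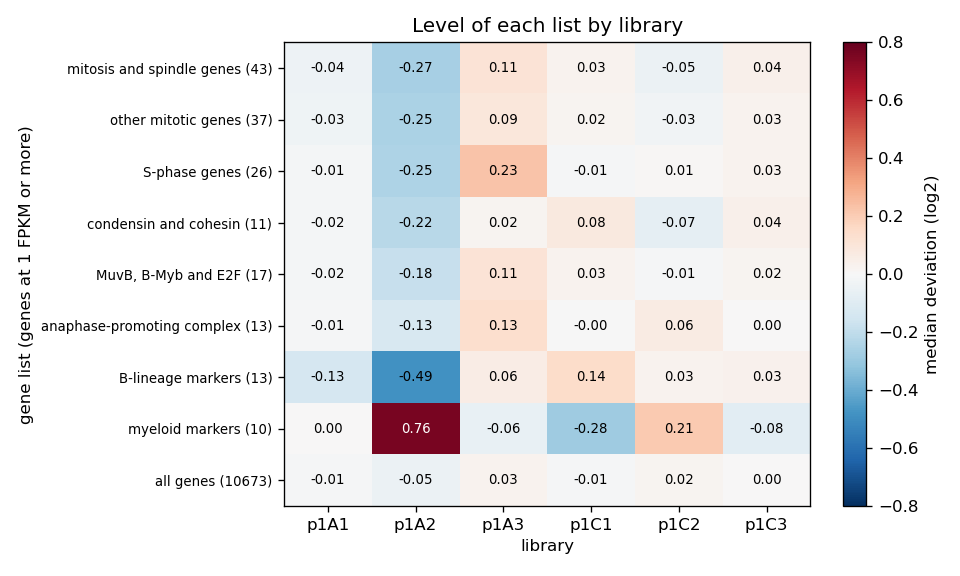
List level (median deviation of log2(FPKM + 1) from each gene's own median) of the mitosis and spindle genes, related lists, marker lists and all genes in each library. Numbers in brackets count the genes with a median of at least 1 FPKM. The proliferation lists are lowest in p1A2, at -0.13 to -0.27, where the myeloid markers are at 0.76 and the B-lineage markers at -0.49.

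Other cell cycle genes were also lowest in p1A2 by list level. Over the 10673 genes, 39.5% were lowest in p1A2, 14.0% lowest in p1C2 and 31.1% highest in p1A3. Of 41 further mitotic genes outside the list, 37 had a row under the symbol used, all 37 at a median of at least 1 FPKM, and 32 of them were lowest in p1A2 and 25 highest in p1A3. Their list level was -0.25 in p1A2 and 0.09 in p1A3, and their medians ran from 7.51 FPKM for Ska1, a microtubule-binding kinetochore gene, to 429.7 FPKM for Stmn1, stathmin, which destabilises microtubules. Of 26 S-phase genes, 24 were lowest in p1A2 and 24 highest in p1A3. The S-phase list level was -0.25 in p1A2 and 0.23 in p1A3, and its medians ran from 10.4 FPKM for Cdc6 to 406.2 FPKM for Pcna. The subunits of the anaphase-promoting complex, with its activator gene Fzr1, had a list level with a range of 0.26. Of these 13 genes 7 (53.8%) were lowest in p1A2, and the list level was -0.13 there and 0.13 in p1A3. Of 11 condensin and cohesin subunits outside the list, 6 (54.5%) were lowest in p1A2 and 4 (36.4%) in p1C2. Of 17 MuvB, B-Myb and E2F regulators, 11 (64.7%) were lowest in p1A2 and 6 (35.3%) in p1C2. Their medians ran from 2.09 FPKM for Mybl1 to 113.5 FPKM for Rbbp4. For these last 3 small lists the shares lowest in p1A2 lay nearer to that of all genes than the 86.5% of the further mitotic genes and the 92.3% of the S-phase genes.

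Within the 43 genes, the deviations also ran with transcript length, taken as the longest protein-coding transcript of the gene in GENCODE release M21. The 10 genes with the shortest transcripts (1466 to 1950 bases), among them Cenpa, Ccnb2, Cdc20 and Aurkb, had a median deviation of 0.11 in p1C2 and 0.22 in p1A3. The 10 with the longest (4652 to 11130 bases), among them Cenpf, Mki67, Cenpe and Top2a, had -0.14 in p1C2 and 0.02 in p1A3, and Mad2l1 was the 1 gene of these 10 above its own median in p1C2. In p1C1 the order turned round, with -0.02 for the 10 shortest and 0.11 for the 10 longest, as it did in p1C3, at 0.02 and 0.10, and by less in p1A1, at -0.07 and -0.02. All 10 genes of both sets were below their own median in p1A2, at -0.28 for the shortest and -0.20 for the longest.

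Over all genes the levels ran the same way with length. Split at 3236 bases, the median length of the 43 genes, the 21 shorter mitosis genes were at 0.01 in p1C2 and 0.15 in p1A3 and the 22 longer ones at -0.10 and 0.05. Of the 10673 genes, 9402 (88.1%) had a length. The 4982 shorter genes were at 0.09 in p1C2 and 0.08 in p1A3, and the 4420 longer ones at -0.04 and -0.01. The p1C2 minimum of Mki67 and the p1C2 maximum of Ube2c and Cenpa stand beside this length trend of all genes in that library, whose part in those values was not tested. Of the 6 mitosis genes highest in p1C2, Bub3 (3414 bases) and Mad2l1 (7557 bases) were among the longer ones by this measure. The longest transcript of a gene need not be the one expressed. Split by the median transcript length of each gene instead, the shorter mitosis genes were at 0.04 in p1C2 and the longer ones at -0.09. In p1A2 the shorter and the longer mitosis genes were both low, the shorter at -0.29 and the longer at -0.22, against -0.07 and -0.03 for all genes.

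**Figure D4:**
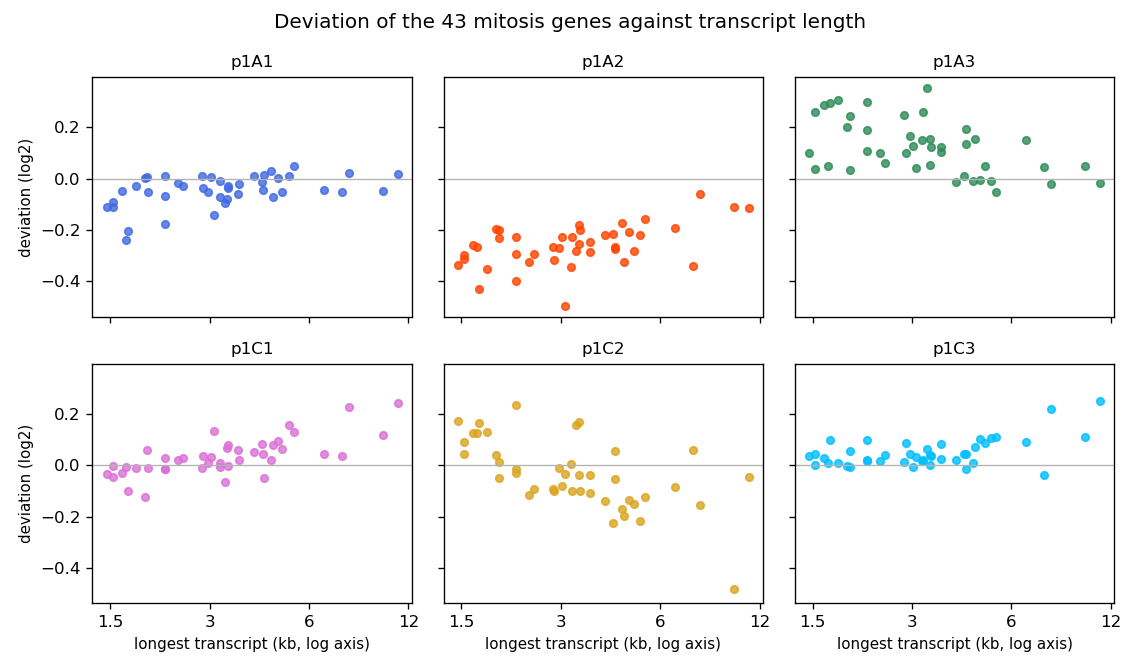
Deviation (log2) of each of the 43 genes from its own median against the length of its longest protein-coding transcript (kb, log axis), 1 panel per library and 1 point per gene. Short genes lie above long ones in p1A3 and p1C2, and below them in p1C1 and p1C3. In p1A2 all points lie below 0.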

How the data were processed

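RNA libraries of 6 pro-B cultures were prepared with an Illumina TruSeq RNA kit, per the labels' protocols. Tools named in the submitters' processing notes, without roles, are TopHat2 2.0.7, TopHat, Cufflinks 2.0.0, Bowtie2 and FastQC, and builds are GRCm38 and mm9. The authors deposited 1 matrix of FPKM values, with 23021 rows and 22551 symbols. No value column was left out. Without read totals the sequencing depth behind each value is unknown. Among 2038 genes under 0.3 FPKM, the commonest ratio of low values between libraries put their depths at 0.936 to 1.16 times that of p1A1. Only 3.68% to 8.73% of these genes lay at that ratio, so the estimate is weak. Library p1A3, put deepest at 1.16, also had the most rows at 0, 33.0% against 30.6% to 31.2% in the others. No pair of libraries shared more than 1 nonzero value, so no column was taken as a copy of another. Matching values cannot show whether libraries came from the same mouse.

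The 6 columns were tied to the passage 1 group as a whole, because their letters are not explained, so no genotype comparison was made. Rows of 1 symbol were summed. Promoters came from RefSeq (GRCm38.p6) and transcript lengths from GENCODE M21. Deviations used log2(FPKM + 1), with genes at a median of at least 1 FPKM, in Python 3.11.15 with pandas 2.3.3 and NumPy 2.4.6. The measure was tested on simulated data with known shifts and independent noise for each gene. That simulation held no trend with length or cell mix, so it does not cover such trends in these libraries. All 6 values are given for the genes with the 5 highest and 5 lowest medians, the 5 largest and 5 smallest highest-to-lowest ratios, and 14 genes named by role. The genes and lists were chosen with earlier results of these data known. Alternatives covered the pseudocount, filter, scaling, length, promoter window and each library left out.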

Additional observations from a re-analysis of the deposited data

Results flagged for a closer look

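Mad2l1, the MAD2 gene, was the 1 gene of 43 in which a single library lay far from the other 5 by Dixon's test. Its value in p1A2 was 43.7 FPKM, and the gap to the next library, p1A1 at 53.6 FPKM, made up 0.694 of the whole range, above the 95% critical value for 6 samples. Chance alone flags about 1 in 20 genes, and 5.13% of the 10673 genes with a median of at least 1 FPKM passed the same value. None of the 8 list levels checked (the 43 genes and their 7 role groups) passed it.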

How the results depend on the processing

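The list level in each library moved by less than 0.129, its SD over the 6 libraries, under a pseudocount of 0.1 or 5, without the filter, under 3 scalings and relative to all genes. In p1A2 it stayed between -0.29 and -0.21, these and the split by length included, while in p1C1 (-0.01 to 0.07) and p1C2 (-0.16 to 0.04) it crossed 0. In p1A3 it ran from 0.04 to 0.16, and with equal sums p1C1, at 0.07, was above p1A3, at 0.04. The range of the list level was 0.15 to 0.38 when 1 library was left out, with 0.15 without p1A2, and the median highest-to-lowest ratio was 1.20 to 1.34, with 1.20 without p1A2. The number of genes lowest in p1A2 was 39 to 43 when 1 other library was left out. Under scalings added after the data were seen it was 29 with each library set to the same sum and 33 with median-of-ratios factors. These scalings also gave 32 with the 75th percentile and 35 relative to all genes. The share of all genes lowest in p1A2 was taken on the FPKM scale only, so these counts have no matching share of all genes. On the scale with equal sums, TPM, the median level of the 43 genes was 114.9. Leaving out a library gave 42.5 to 45.2 FPKM. The share of all promoters with TTTGAA was 12.2% among genes with a median of at least 1 FPKM, 8.01% in a window from 100 bases before the start and 19.2% with TTCGAA allowed. For CCAAT it was 38.3% and 23.4% in the first 2 of these. The matching shares of the mitosis genes stayed between 70.3% and 81.1%. Among promoters of genes with a median of at least 1 FPKM, 1.55% held the pair of CCAAT boxes 31 to 33 bases apart. No paired analysis was possible because no column is tied to a genotype. Unknown depth limits any statement on small differences between libraries.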
